A study of Bos taurus with 12 samples.

Results

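The nuclear genes of the mitochondrial respiratory chain and ATP synthase were followed in cultured bovine aortic endothelial cells under 4 kinds of flow. They were taken from the array's annotation by symbol: the NDUF genes of complex I, the SDH genes of complex II, CYC1 and the UQCR and UQCC genes of complex III, the COX genes numbered 4 to 8 and 10 to 19 for complex IV, the ATP5 genes and the ETF genes. This gave 81 genes of the 3977 that the annotation named, with 88 probe sets, and 6 of the genes had several. A gene was represented by its probe set with the highest mean over the 12 arrays. Complex I contributed 35 genes (6 core subunits, 26 accessory subunits, 3 assembly factors), complex II 3, complex III 11, complex IV 14, ATP synthase 16 and the electron transfer flavoprotein 2. The soluble cytochrome c gene CYCS and the mitochondrially encoded subunits, looked for under 26 symbols, had no named probe set and were not analysed here.

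The respiratory chain passes electrons from NADH and succinate through complexes I to IV to oxygen and pumps protons across the inner mitochondrial membrane, and ATP synthase uses the returning protons to make ATP. Each complex is built from many subunits with the help of assembly factors that are not part of the finished enzyme. Cultured endothelial cells make much of their ATP by glycolysis, and their mitochondria are also studied as a source of signalling oxidants under flow.

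The cells were at passage 15 and had been grown to confluence on glass coverslips over 5 days with 10% serum. They were equilibrated for 24 h in flow medium with 5% fetal bovine serum and 8% Dextran 70 before 24 h of flow. The sample labels also give 1% antibiotic. The 4 groups, of 3 arrays each, were a positive spatial gradient of wall shear stress (WSS), a negative gradient, a uniform high WSS of 28.4 Pa and a uniform baseline WSS of 3.5 Pa. Neither the stress reached locally under the gradients nor the origin of the replicates (separate cultures or not) is stated, so p-values measure only the spread between these samples, which may be technical. The gradient samples and the uniform-flow samples carry sample numbers from separate ranges, and the labels do not say whether they were processed apart. Comparisons of a gradient with high WSS or baseline cannot tell the flow apart from this division. A bulk value cannot tell fewer cells of a type apart from less RNA per cell.

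Of 18 endothelial markers 13 were measured, from percentile 14.8 of the named genes for FLT1, a VEGF receptor, to 96.3 for PECAM1, a junction protein. The summed level of the 13 (log2) was 14.10 to 14.17 under the positive gradient, 14.09 to 14.21 under the negative gradient, 13.94 to 14.17 at high WSS and 13.74 to 13.97 at baseline, and its part in the results was not tested. Not all markers followed the sum. ERG, an endothelial transcription factor, averaged 9.39 under the positive gradient and 10.01 at baseline, ROBO4, a vascular receptor, 8.92 and 9.38, and SOX18 9.34 and 9.40. The largest differences went with the sum: NOS3 averaged 10.71 under the positive gradient and 8.99 at baseline, TIE1 9.88 and 8.64, and FLT1 7.36 and 6.17. CD14, the only measured marker of leukocytes, stood at percentile 2.09. It averaged 4.64 under the positive gradient, 5.84 under the negative gradient, 4.88 at high WSS and 6.41 at baseline. Of 8 markers of smooth muscle 2 were measured, TAGLN at percentile 58.4 and SMTN at 4.20. Of 7 markers of fibroblasts 3 were measured, COL1A2 at percentile 96.1, COL3A1 at 57.5 and THY1 at 11.6. TAGLN averaged 8.61 under the positive gradient, 9.95 under the negative gradient, 8.19 at high WSS and 9.04 at baseline. The part of these markers in the results was not tested. The GAPDH control probe sets, which compare the 3′ and 5′ ends of that transcript, separated the arrays: the 3′ minus 5′ difference was 0.040 to 0.34 (log2) on the 6 gradient arrays, 0.089 on high WSS replicate 3, and 0.59 to 0.70 on the other 2 high WSS and the 3 baseline arrays. The EF1A control separated them alike, at −2.16 to −1.54 on the gradient arrays and −2.03 on high WSS replicate 3, against −1.42 to −1.04 on the others. The ACTB control did not separate them, at 0.63 to 1.53 on the gradient arrays and 1.01 to 1.69 on the baseline arrays. High WSS replicate 3, at 1.14 in ACTB, lay between the 1.06 and 1.24 of its group. High WSS replicate 3 thus stood apart from its group in the GAPDH and EF1A controls but not in ACTB. Samples with the same replicate number deviated together in every comparison, except for replicate 3 of negative gradient against high WSS. Values from a fit with the replicate number as a block are given where they change a count. Every p-value of a gene comes from limma, was Benjamini-Hochberg adjusted across the 24016 probe sets tested, and was called under 0.05. Precision is limited by the number of arrays.

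The 81 genes ranged from 6.73 for COX7A1 to 12.6 for ATP5MC3 in their mean log2 value over the 12 arrays, with a median percentile of 86.1 among the named genes. Of the 81, 6 lay below percentile 50. Brightness also depends on the probes, so these values do not order transcripts by amount. The SD within groups had a median of 0.18 over the members. The 4 group means of a member spanned 0.31 in the median.

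Under the positive gradient 7 respiratory genes rose against baseline and none fell. They were UQCRC1, NDUFV1, ATP5F1D, CYC1, SDHD, ATP5MC3 and UQCRB, from complexes I, II and III and from ATP synthase, and the increases lay between 1.47-fold and 2.25-fold. The 7 are 8.64% of the members, against 2.74% of all probe sets and 6.08% of named genes called higher and 4.27% and 7.77% called lower. In either direction 7.01% of all probe sets and 13.9% of named genes were called. Over all 81 members the median log2 difference was 0.22, beside 0.012 over all probe sets and −0.041 over named genes, and 69 members had higher values under the positive gradient. All 3 positive gradient arrays lay above all 3 baseline arrays for 42 members and below them for 4, while 18.6% of all probe sets and 23.8% of named genes lay above, and 17.9% and 26.5% below.

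**Figure D1:**
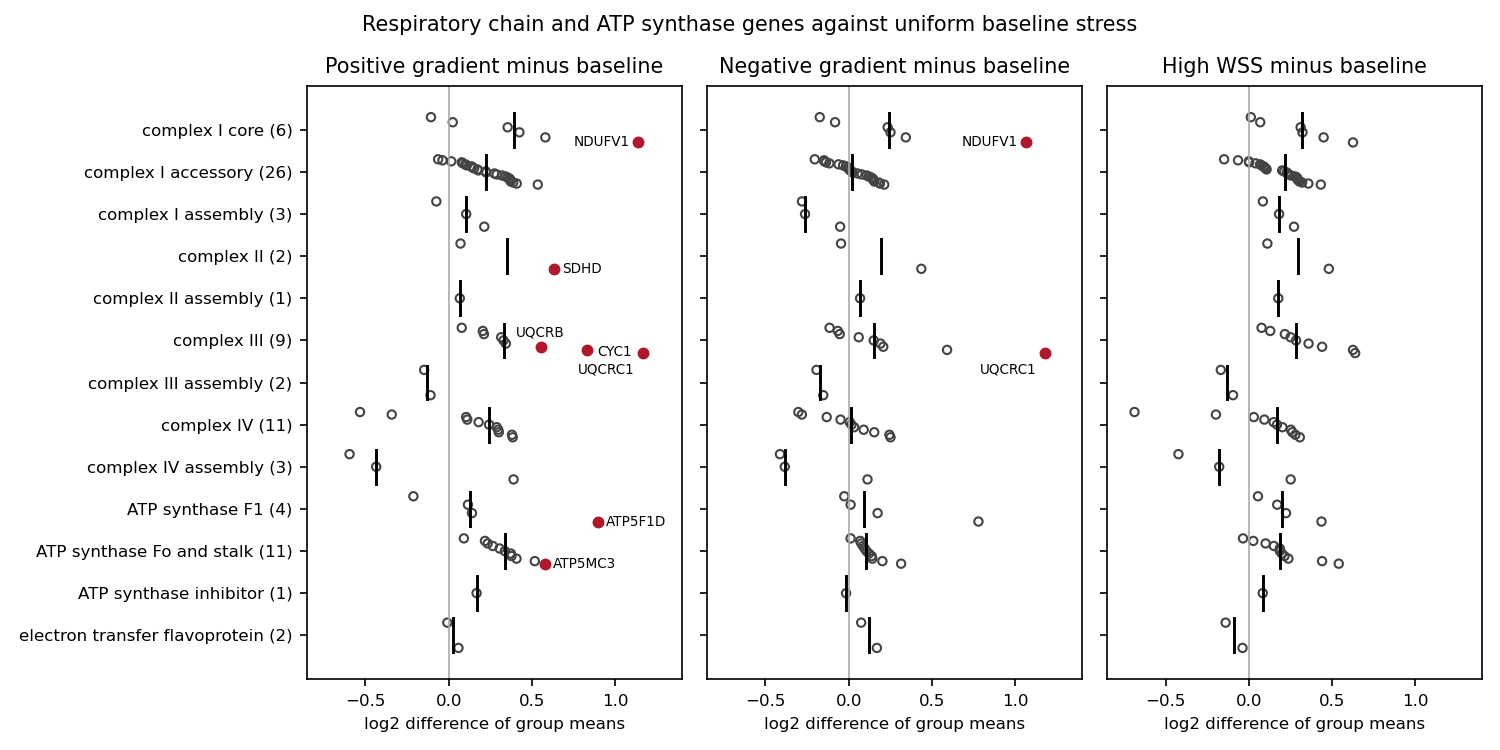
Log2 difference of group means (horizontal axis) of each of the 81 members against baseline WSS, by complex and role, with the number of genes in brackets; one panel each for positive gradient, negative gradient and high WSS. Filled red points passed limma's test at an adjusted p under 0.05 (7, 2 and 0 members), open points did not, and black bars are medians of the class. Most subunits sit slightly right of 0 under the positive gradient and high WSS, while COX7A1 and COX8B of complex IV and its assembly factors COX15 and COX19 sit left of 0 in each panel.

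At the entry of the chain, NDUFV1, the flavoprotein of complex I that takes electrons from NADH, read 9.60, 9.30 and 9.34 on the positive gradient arrays, against 8.43, 8.26 and 8.15 on the baseline arrays. The groups did not overlap. The difference was 1.14 (log2, SE 0.233, limma adjusted p = 0.0223), a 2.20-fold rise. NDUFV2, the iron-sulfur protein that NDUFV1 pairs with, differed by 0.024 (95% interval −0.29 to 0.34), and NDUFV3, an accessory subunit of the same module, by 0.086. Of the other core subunits, NDUFS8, NDUFS7 and NDUFS1, which carry iron-sulfur clusters, stood at 0.58, 0.35 and −0.11, and NDUFS3, a core subunit without such a cluster, at 0.42, none of them past the test.

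The 26 accessory subunits of complex I had a median difference of 0.22, with 24 of 26 at higher values and none past the test. NDUFB6, a membrane-arm subunit, read 10.63, 10.46 and 10.84 under the positive gradient, against 10.11, 9.94 and 10.27 at baseline, without overlap (0.53, SE 0.167, adjusted p = 0.0682). NDUFA11 stood at 0.37 and NDUFA1, a small membrane subunit, at 0.016. The 3 probe sets of NDUFA5 gave unlike values: −0.063 at the brightest, 0.53 at the second (adjusted p = 0.0329) and 0.88 at the dimmest (0.137). The assembly factors NDUFAF3, NDUFAF5 and NDUFAF8 stood at −0.074, 0.11 and 0.21. A second, dimmer probe set of NDUFAF3 stood at 0.38, in the other direction, and did not pass the test.

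In complex II, SDHD, a subunit that anchors the complex in the membrane, read 10.51, 10.46 and 10.53 under the positive gradient, against 9.79, 9.77 and 10.05 at baseline. It was higher on every positive gradient array, by 0.63 (SE 0.143, adjusted p = 0.0288). SDHB, the iron-sulfur subunit, stood at 0.071 and the assembly factor SDHAF1 at 0.067, neither past the test.

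Complex III held 3 of the 7 called genes, and all 9 of its subunits had higher values (median 0.33). UQCRC1, the larger core protein, read 10.34, 10.06 and 9.94 under the positive gradient, against 9.00, 8.89 and 8.94 at baseline. The lowest positive gradient array lay above the highest baseline array, and the difference of 1.17 (SE 0.243, adjusted p = 0.0232) was the largest of the 81. UQCRC2, the companion core protein, read 10.47, 10.23 and 10.10, against 10.19, 9.77 and 10.21, so that its groups overlapped (0.21, 95% interval −0.20 to 0.62). A second, dimmer probe set of UQCRC2 stood at 0.0040.

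CYC1, cytochrome c1, the heme protein that hands electrons to cytochrome c, read 11.08, 10.75 and 10.86 under the positive gradient, against 10.25, 9.87 and 10.09 at baseline (0.83, SE 0.204, adjusted p = 0.0349). UQCRB, a quinone-binding subunit, read 12.19, 12.20 and 12.35, against 11.68, 11.54 and 11.87 (0.55, SE 0.139, adjusted p = 0.0370). Neither gene's groups overlapped. A second, dimmer probe set of UQCRB stood at 0.15. UQCRFS1, the Rieske iron-sulfur protein, stood at 0.34 and the small subunit UQCRQ at 0.33. The assembly factors UQCC3 and UQCC5 stood at −0.11 and −0.15.

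In complex IV no gene passed the test, and the direction was mixed. COX8A, the widely expressed form of subunit 8, stood at 0.38 and COX7A2, the widely expressed form of subunit 7A, at 0.11. Their muscle forms had lower values: COX8B by −0.34 (SE 0.122, adjusted p = 0.0968), below baseline on all 3 arrays, and COX7A1 by −0.53 (SE 0.283, adjusted p = 0.238). COX7A1 read 6.31, 7.04 and 6.39 under the positive gradient, against 6.74, 7.51 and 7.08 at baseline. The groups overlapped because replicate 2 was the highest array of both. COX7A1 was the dimmest member, at percentile 11.9 of the named genes, whereas COX8B stood at percentile 79.3. Of 6 markers of heart and skeletal muscle 3 were measured, these 2 genes and MYH7, a muscle myosin at percentile 29.7. MYH7, the one that is not a member, averaged 7.92 under the positive gradient, 8.23 at high WSS and 7.30 at baseline, so its mean was higher under the positive gradient where those of COX7A1 and COX8B were lower.

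The 3 assembly factors of complex IV did not share a direction. COX15, which makes heme A for the catalytic subunit, read 8.34, 8.85 and 8.68 under the positive gradient, against 8.95, 9.58 and 9.12 at baseline (−0.59, SE 0.213, adjusted p = 0.0976). COX19, a copper-related factor, read 7.67, 7.56 and 7.50, against 8.15, 7.83 and 8.05 (−0.44, SE 0.133, adjusted p = 0.0633), and its second probe set stood at −0.32. Both were lower on every positive gradient array. COX16 stood at 0.39, with all 3 arrays above baseline. Over the 9 assembly factors of all complexes the median was −0.074, beside 0.27 over the other 72 members. No test was made of this contrast, and −0.074 was the value of NDUFAF3, whose dimmer probe set stood at 0.38.

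In ATP synthase, ATP5F1D, the delta subunit of the catalytic head, read 9.57, 9.33 and 9.32 under the positive gradient, against 8.60, 8.49 and 8.46 at baseline. The groups did not overlap (0.90, SE 0.207, adjusted p = 0.0305). The other subunits of the head did not pass: the alpha subunit ATP5F1A stood at −0.21, the beta subunit ATP5F1B at 0.14 and the gamma subunit ATP5F1C at 0.12.

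All 11 genes of the membrane part and stalk had higher values (median 0.34). The c ring, which turns as protons pass, is encoded by 3 genes for the same mature protein, and these differed. ATP5MC3 read 12.94, 12.79 and 12.85 under the positive gradient, against 12.40, 12.12 and 12.33 at baseline, without overlap (0.58, SE 0.154, adjusted p = 0.0439). ATP5MC1 stood at 0.52 (SE 0.155, adjusted p = 0.0597) and ATP5MC2 at 0.091 (95% interval −0.16 to 0.34). ATP5IF1, the inhibitor protein, stood at 0.17, and ETFA and ETFB, which carry electrons from fatty acid oxidation, at −0.0081 and 0.059.

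With the replicate block 14 members were higher and 4 lower under the positive gradient, where that fit called 7.32% of all probe sets and 16.1% of named genes higher, 9.64% and 18.2% lower, and 17% and 34.3% in either direction. The added genes included NDUFB6 (adjusted p = 0.0173 with the block) and ATP5MC1 (0.0358) as higher, and COX7A1 (0.0175), COX15 (0.0190) and COX19 (0.0227) as lower. Pair by pair COX7A1 differed by −0.43, −0.46 and −0.70. Without the block, the 7 calls depended on single arrays. The fit called 0 members without any one of the positive gradient arrays or without baseline replicate 3, 1 without baseline replicate 1, 2 without baseline replicate 2 and 11 without high WSS replicate 3, where 13.5% of all probe sets and 24.6% of named genes were called. The 7 differences themselves kept their sign in all of these fits, UQCRC1 between 1.06 and 1.26 and ATP5MC3 between 0.50 and 0.63.

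**Figure D2:**
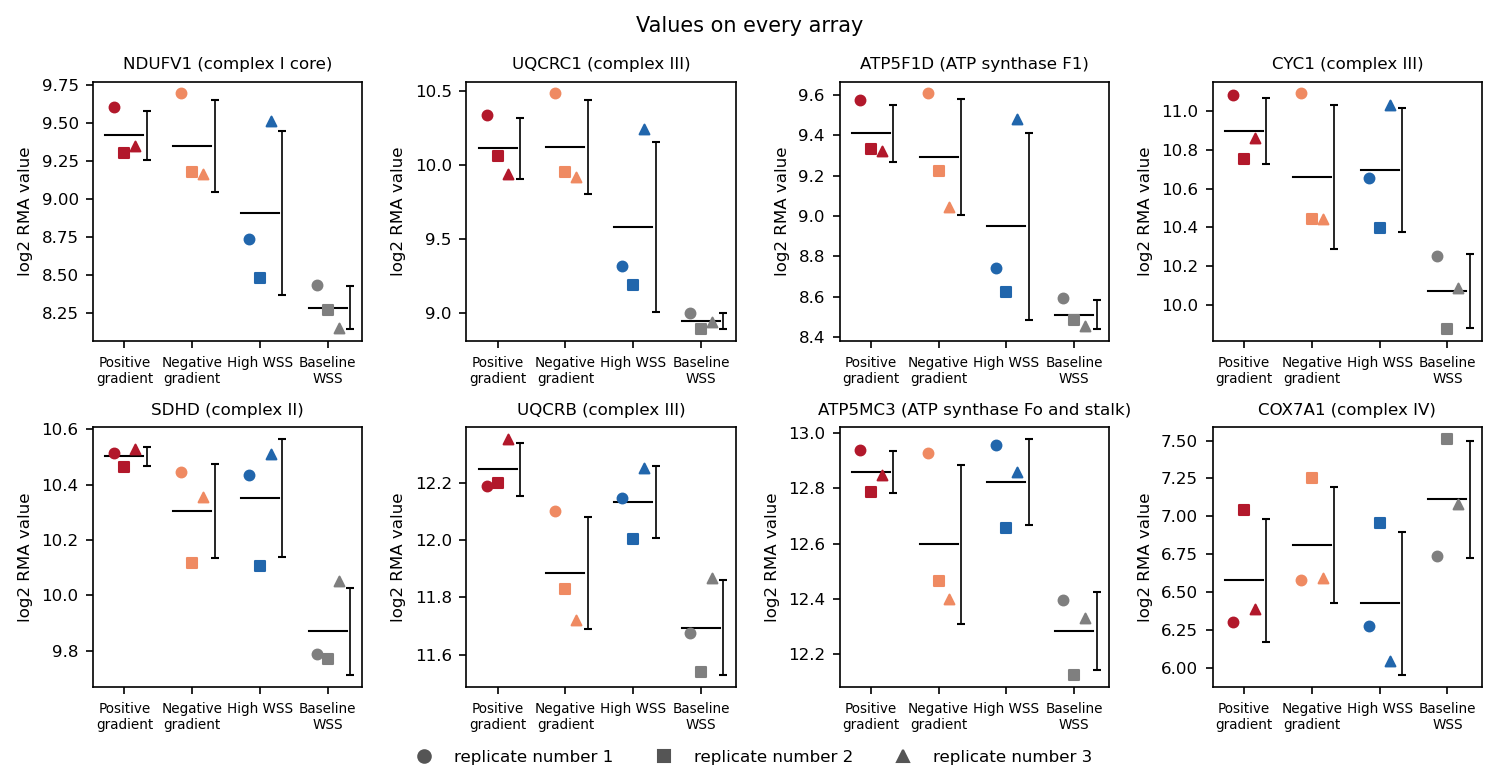
Log2 RMA value (vertical axis, scaled to each gene) of the 7 members called under the positive gradient and of COX7A1 on every array, with groups from left to right as positive gradient, negative gradient, high WSS and baseline WSS. Symbols mark the replicate number, bars the group mean, and error bars 1 SD (n = 3). For NDUFV1, UQCRC1 and ATP5F1D high WSS replicate 3 lies at the level of the gradient arrays, far above the other 2 high WSS arrays, and for COX7A1 replicate 2 is the highest array of each group.

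Under the negative gradient 2 of the 81 members rose against baseline, 2.47% of them, where 1.2% of all probe sets and 3.14% of named genes were called higher, and 1.67% and 3.65% in either direction. UQCRC1 read 10.49, 9.96 and 9.92 on the negative gradient arrays, and its rise of 1.18 (SE 0.243, adjusted p = 0.0389) was close to that under the positive gradient. NDUFV1 read 9.69, 9.17 and 9.16 and rose by 1.06 (SE 0.233, adjusted p = 0.0430). Every negative gradient array of both genes lay above the baseline arrays given above. The 2 comparisons share the baseline arrays and so are not independent.

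The next largest differences were ATP5F1D at 0.78 (adjusted p = 0.0651), CYC1 at 0.59 (0.120) and SDHD at 0.44 (0.105). The other genes called under the positive gradient stood lower, with ATP5MC3 at 0.31 and UQCRB at 0.19. The second probe set of UQCRB stood at −0.52 (adjusted p = 0.0878), in the other direction. UQCRC2 stood at 0.15 at its brightest probe set and at −0.23 at the other. COX19 stood at −0.41 (adjusted p = 0.101), COX15 at −0.38 and COX8B at −0.28. The median over all members was 0.068, beside −0.017 over all probe sets and −0.069 over named genes, and 52 members had higher values. Of the 9 assembly factors 7 had lower values (median −0.19). NDUFAF3, 1 of the 7, stood at −0.26 at its brightest probe set and at 0.26 at the other.

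Among the 3 pairs the members did not behave alike. NDUFB6 differed from baseline by 0.43, 0.040 and −0.027 and ATP5MC1 by 0.66, 0.16 and −0.21 from pair 1 to pair 3. UQCRC1, by contrast, differed by 1.48, 1.06 and 0.98. Without negative gradient replicate 1 the median over members was −0.091. The groups did not overlap for 8 members above baseline and 2 below, where 14.6% of all probe sets and 16.6% of named genes lay above and 14.9% and 17.8% below. With the block, 4 members were higher and 1 lower (3.82% of all probe sets and 8.32% of named genes higher, 2.8% and 3.55% lower, 6.62% and 11.9% in either direction), which added SDHD (adjusted p = 0.0486) and ATP5F1D (0.0442) as higher and COX19 (0.0467) as lower. Without the block, 0 members were called once any one positive gradient, negative gradient or baseline array was left out, and 3 without high WSS replicate 3, where 8.63% of all probe sets and 14.6% of named genes were called.

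At high WSS no member passed the test against baseline by limma, while 0.408% of all probe sets and 1.18% of named genes did. An unadjusted p under 0.05 was found for 10 members. Such counts, here and below, have no share over all probe sets beside them and are not read as an excess. Although no member passed, 70 of the 81 members had higher values (median 0.20, beside 0.0091 over all probe sets and −0.014 over named genes). The 3 high WSS arrays lay above all 3 baseline arrays for 28 members, where 9.09% of all probe sets and 15.1% of named genes did, and below them for 1, where 9.89% and 17.5% did. The largest differences were COX7A1 at −0.69 (SE 0.283, adjusted p = 0.273), UQCRC1 at 0.64 (0.243, 0.236), NDUFV1 at 0.63 (0.233, 0.227), CYC1 at 0.63 (0.204, 0.176) and ATP5MC3 at 0.54 (0.154, 0.131).

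The members with large differences did not rest on the same arrays. NDUFV1 read 8.73, 8.48 and 9.51 on high WSS arrays 1, 2 and 3, UQCRC1 read 9.32, 9.19 and 10.24, and ATP5F1D read 8.74, 8.63 and 9.48. In each of the 3 genes replicate 3 lay among the gradient arrays and the other 2 arrays lay closer to baseline. ATP5MC3 read 12.96, 12.66 and 12.86 and differed from its same-numbered baseline arrays by 0.56, 0.53 and 0.53. SDHD differed by 0.65, 0.34 and 0.46, UQCRB by 0.47, 0.46 and 0.38 and NDUFB6 by 0.43, 0.43 and 0.44.

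Without high WSS replicate 3 the differences from baseline were 0.32 for NDUFV1 (adjusted p = 0.521), 0.31 for UQCRC1 (0.535) and 0.17 for ATP5F1D (0.742), each much smaller than with it. For ATP5MC3 it was 0.52 (0.282), for CYC1 0.46 (0.425) and for SDHD 0.40 (0.340). Without that array 0 members were called, where 0.0708% of all probe sets and 0.126% of named genes were, and the median over all members was 0.17. With the block and all arrays 3 members were higher and 1 lower (2.34% of all probe sets and 6.79% of named genes higher, 3.05% and 7.77% lower, 5.39% and 14.6% in either direction): SDHD (adjusted p = 0.0367), CYC1 (0.0453) and ATP5MC3 (0.0247) were higher and COX7A1 (0.00953) was lower. COX7A1 read 6.27, 6.96 and 6.05 at high WSS and differed by −0.47, −0.55 and −1.04 in the 3 pairs.

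NDUFV1, UQCRC1 and ATP5F1D were the only members in which all 6 gradient arrays lay above the 3 baseline arrays and high WSS replicates 1 and 2. They are 3.7% of the members, while 7.07% of all probe sets and 10% of named genes did so. The choice fixes how 11 of the arrays divide, along the line that the GAPDH control also draws, so the plot of members against the control is a description. Outside that choice, high WSS replicate 3 lay above the 5 other uniform-flow arrays in all 3 genes. This was not particular to them, since it held in many other members, NDUFS8 among them, and failed in many others. The share of all probe sets for which it held was not counted. CYC1 read 11.03 on that array, 0.38 above the highest of the 5 others, although its gradient arrays, from 10.44, overlapped them. The part of RNA length or labelling in the rises of NDUFV1, UQCRC1, ATP5F1D and CYC1 was not tested. UQCRC2, a partner chosen after its values were seen, showed no such split, at 9.91 to 10.58 on the gradient arrays and 10.16 on high WSS replicate 3, against 9.77 to 10.39 on the other uniform-flow arrays.

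**Figure D3:**
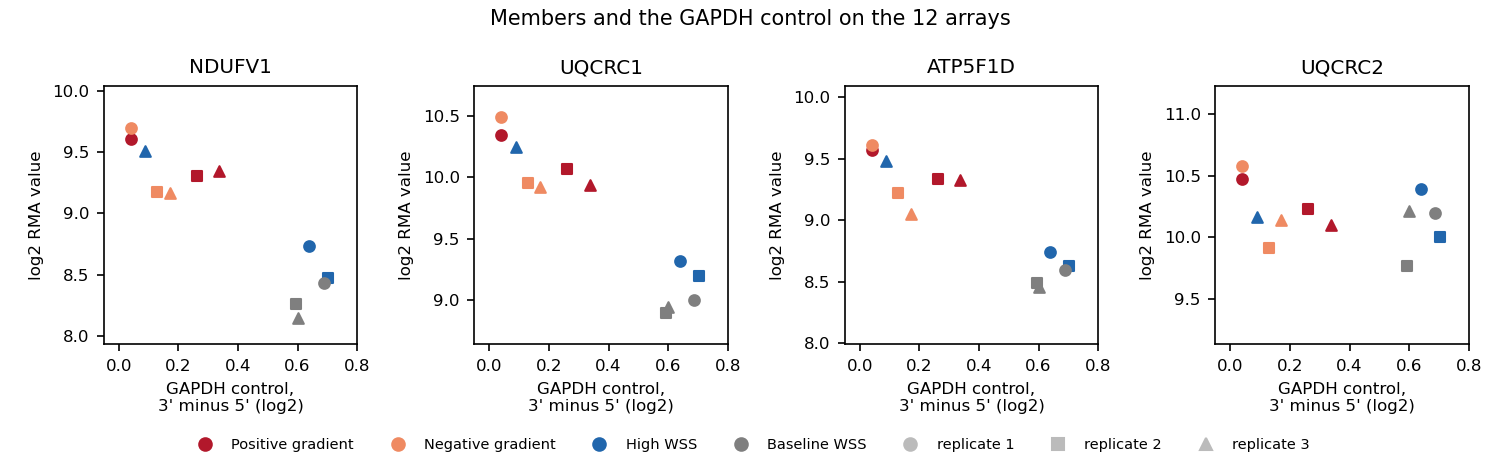
Log2 RMA value (vertical axes, each spanning the same range around the gene's mean) against the 3′ minus 5′ difference of the GAPDH control (horizontal axes, log2) on the 12 arrays, for NDUFV1, UQCRC1, ATP5F1D and UQCRC2. Colours mark the flow group and symbols the replicate number. The first 3 genes fall into a high set with high WSS replicate 3 among the gradient arrays and a low set of 5 uniform-flow arrays, while the UQCRC2 values of the sets overlap.

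Subunits that work side by side can be set against each other within an array, which removes what is common to both. These pairs were chosen after the values were seen, and are given as descriptions. NDUFV1 minus NDUFV2 was −1.74 ± 0.10 (log2, SD, n = 3) under the positive gradient, −1.70 ± 0.25 under the negative gradient, −2.23 ± 0.67 at high WSS and −2.85 ± 0.21 at baseline. UQCRC1 minus UQCRC2 was −0.15 ± 0.017, −0.084 ± 0.13, −0.60 ± 0.60 and −1.11 ± 0.21 in the same order of groups. The SD at high WSS reflects replicate 3, which read −1.47 for the first pair and 0.082 for the second. CYC1 minus UQCRFS1 showed the same division of arrays, at −0.41 to −0.18 under the gradients and −0.17 on high WSS replicate 3, against −0.82 to −0.64 on the other 5 arrays.

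The c ring genes differed in another way. ATP5MC3 minus ATP5MC2 was 1.84 ± 0.021 under the positive gradient, 1.56 ± 0.17 under the negative gradient, 1.93 ± 0.091 at high WSS and 1.35 ± 0.064 at baseline, and high WSS replicate 3, at 1.93, lay with its own group. ATP5MC3 minus ATP5MC1 was 2.92 ± 0.033, 2.97 ± 0.099, 2.96 ± 0.091 and 2.86 ± 0.17, so these 2 genes kept nearly the same distance. The muscle minus the common form of subunit 8, COX8B minus COX8A, was −1.59 ± 0.15 under the positive gradient, −1.39 ± 0.19 under the negative gradient, −1.37 ± 0.24 at high WSS and −0.86 ± 0.23 at baseline.

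**Figure D4:**
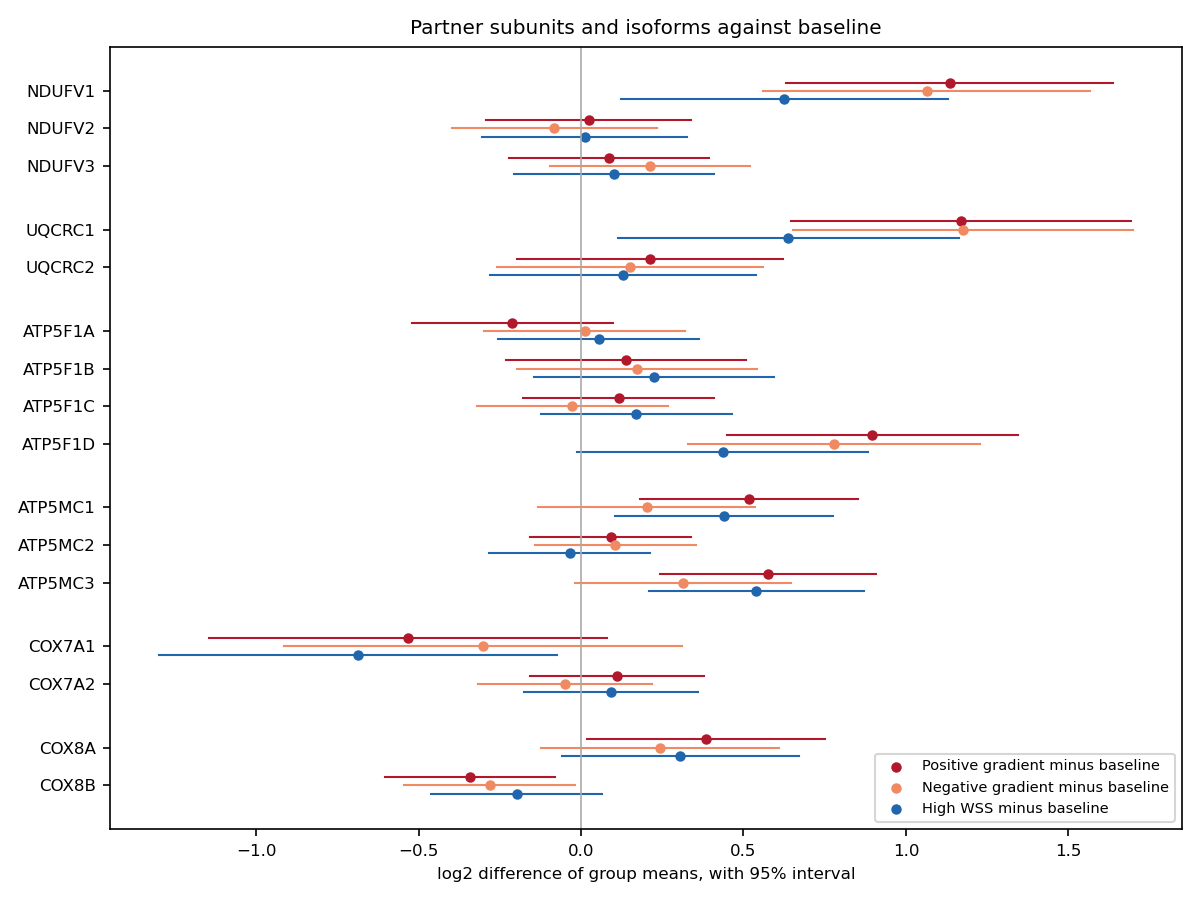
Log2 difference from baseline WSS (horizontal axis, points) with its 95% interval from limma (lines) for partner subunits and isoforms, for the positive gradient, the negative gradient and high WSS from top to bottom within each gene. NDUFV1, UQCRC1 and ATP5F1D lie right of their partners under both gradients, ATP5MC1 and ATP5MC3 lie right of ATP5MC2 under the positive gradient and high WSS, and COX7A1 and COX8B lie left of COX7A2 and COX8A.

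Between the gradients, the comparison that the series title names, no member passed the test, and limma called 0% of all probe sets. With the block 0 members were called (0.025% of all probe sets), and 6 members had an unadjusted p under 0.05 without it. The positive gradient nevertheless had the higher mean in 67 of 81 members (median 0.18, beside 0.0079 over all probe sets and −0.011 over named genes). By complex the medians were 0.22 for complex I, 0.14 for complex III, 0.15 for complex IV and 0.19 for ATP synthase. The 95% intervals of all 81 differences lay within a 2-fold change either way.

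The largest differences were NDUFC1, a small membrane subunit of complex I, at 0.43 (SE 0.153, adjusted p = 0.854), UQCRQ at 0.40 (0.132, 0.830), and NDUFB6, NDUFB4 and NDUFAF5 at 0.39 each. NDUFC1 read 11.01, 11.20 and 11.38 under the positive gradient, against 10.95, 10.85 and 10.50 under the negative gradient. Its groups did not overlap, but the pairs differed by 0.063, 0.35 and 0.88. Such separation held for 5 members above and 0 below, where 5.14% of all probe sets and 5.46% of named genes lay above and 5.52% and 10.2% below. The 3 genes with the strongest rise over baseline stood near 0 here, UQCRC1 at −0.0063 (95% interval −0.53 to 0.52), NDUFV1 at 0.072 and ATP5F1D at 0.12.

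Between positive gradient and high WSS limma called 0 of the 81 members. In all, 0% of all probe sets were called, with or without the block, and 3 members had an unadjusted p under 0.05. These were UQCRC1 (0.53, SE 0.243, adjusted p = 0.790), NDUFV1 (0.51) and ATP5F1D (0.46). The next largest were ATP5F1A at −0.27 and COX19 at −0.26, which was lower on all 3 positive gradient arrays. Against high WSS the 3 positive gradient arrays lay above for 8 members and below for 1, where 3.98% of all probe sets and 3.75% of named genes lay above and 4.56% and 2.62% below. For UQCRC1 the same-numbered arrays differed by 1.02, 0.87 and −0.30. Without high WSS replicate 3, 1 member was called, UQCRC1 (0.86, adjusted p = 0.0438), where 1.42% of all probe sets and 2.49% of named genes were called.

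Negative gradient against high WSS gave 0 called members, where 0.0958% of all probe sets and 0.302% of named genes were called and 7 members had an unadjusted p under 0.05. Here 67 of 81 members had lower values under the negative gradient (median −0.12, beside −0.0019 over all probe sets). Of the members 1 lay above and 4 below without overlap, where 7.45% of all probe sets and 12.5% of named genes lay above and 8.15% and 7.09% below. NDUFAF5 read 8.14, 7.53 and 7.72 under the negative gradient, against 8.57, 8.41 and 8.06 at high WSS, with overlap only through high WSS replicate 3 (−0.55, SE 0.175, adjusted p = 0.168). UQCRC1 stood at 0.54, NDUFV1 at 0.44, COX7A1 at 0.38 and UQCR10, a small subunit of complex III, at −0.37. Without high WSS replicate 3 the fit called 4 members, where 7.36% of all probe sets and 12.6% of named genes were called. UQCRC1 (0.87, adjusted p = 0.0195), NDUFV1 (0.74, 0.0350) and ATP5F1D (0.61, 0.0470) were then higher and NDUFAF5 (−0.69, 0.0397) lower.

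Across the 4 groups together, limma's F test called no member without the block, where 1.59% of all probe sets and 4.17% of named genes passed, and the lowest adjusted p was 0.0518, for UQCRC1. It called 4 without high WSS replicate 3, where 11.7% of all probe sets passed, and 10 with the block, where 11.9% of all probe sets and 27.8% of named genes passed. The 10 were NDUFV1, NDUFB6, SDHD, CYC1, UQCRB, UQCRC1, COX7A1, COX19, ATP5F1D and ATP5MC3. The group mean was highest under the positive gradient for 54 of 81 members, a place held by 18.7% of named genes, and lowest at baseline for 47, as for 31.7% of named genes. The order positive gradient, high WSS, negative gradient, baseline was the most common, in 32 members. Between neighbours in this order, limma called 0 members for positive gradient against high WSS and for negative gradient against high WSS, and 2 for negative gradient against baseline.

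The members also varied together from array to array. The median deviation of the 81 genes from their own means was 0.19, 0.029 and 0.17 on positive gradient arrays 1, 2 and 3, and 0.21, −0.16 and −0.20 on the negative gradient arrays. It was 0.11, −0.024 and 0.094 on the high WSS arrays and −0.068, −0.25 and −0.036 on the baseline arrays. Negative gradient replicate 1 was thus as high as the positive gradient arrays, and replicate 2 was the lowest array of every group except the negative gradient. The mean of these medians spanned 0.25 over the 4 groups and 0.21 over the 3 replicate numbers, and 29 members varied more over replicate numbers than over groups.

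**Figure D5:**
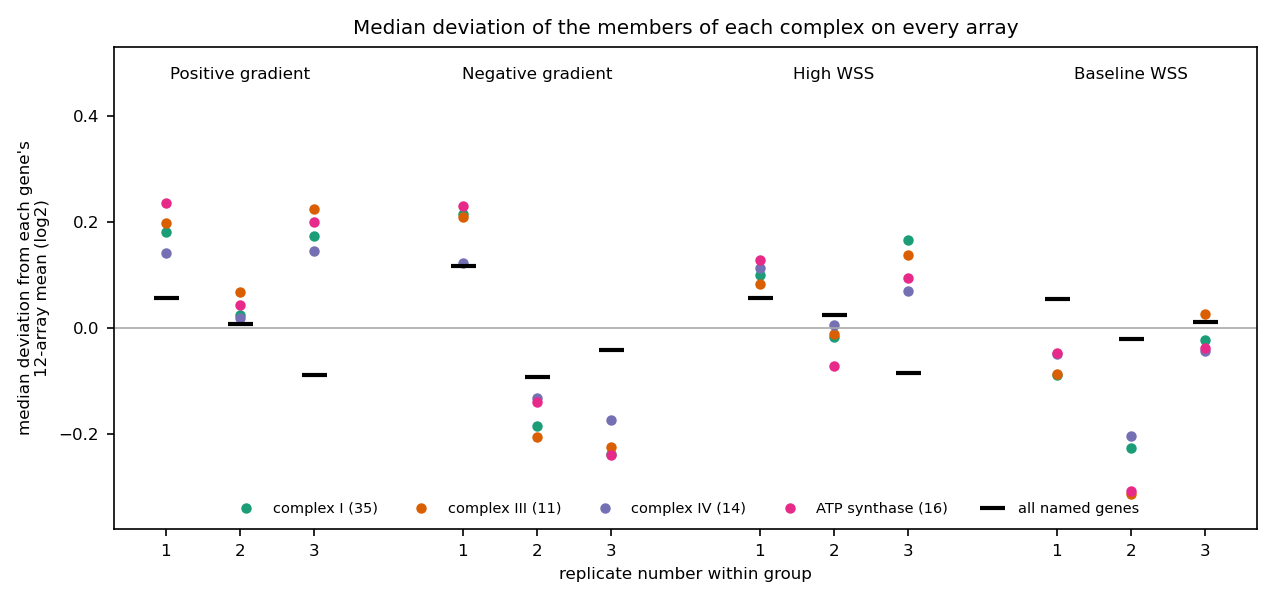
Median deviation from each gene's mean over the 12 arrays (vertical axis, log2) of the members of complexes I, III and IV and of ATP synthase on each array, with the median of all named genes as black bars. Groups run from positive gradient, negative gradient and high WSS to baseline WSS, each with replicates 1 to 3 on the horizontal axis. The complexes lie close together on every array, and negative gradient replicates 2 and 3 and baseline replicate 2 are the lowest arrays.

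Over the 12 arrays the median Pearson correlation between pairs of members was 0.63, and between pairs of named genes it was 0.066. With the group means removed these values were 0.70 and 0.11. The arrays share their normalization and the replicate numbers, so this is a description without a test. Against the median of the other members, 68 genes had a correlation above 0.5, UQCRH, the hinge protein of complex III, the highest at 0.98. The 4 below 0 all belonged to complex IV or its assembly: COX15 at −0.87, COX7A1 at −0.71, COX8B at −0.23 and COX19 at −0.083. COX15 and COX7A1 were highest on replicate 2 in each of the 4 groups, COX7A1 at 7.04, 7.25, 6.96 and 7.51 and COX15 at 8.85, 9.04, 9.07 and 9.58 from positive gradient to baseline.

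Other mitochondrial and metabolic genes were read from lists chosen with earlier results known. Under the positive gradient against baseline the fit without the block called 13.9% of named genes. It called 0 of 12 measured genes of the TCA cycle and pyruvate oxidation (median 0.20). None was called of 5 regulators of the mitochondrial genome, 9 genes listed under fatty acid oxidation or 9 antioxidant enzymes. Of 10 carriers 2 rose, SLC25A6, an ADP/ATP carrier of the inner membrane (0.84, SE 0.214, adjusted p = 0.0386), and VDAC2, a channel of the outer membrane (0.76, SE 0.169, adjusted p = 0.0282). Of 28 genes of import, cristae and dynamics, TOMM40, the import pore of the outer membrane (0.96), IMMT, which shapes cristae (0.79), and HSPE1, the co-chaperonin of the matrix (0.66), rose and TIMM22, an inner membrane translocase (−0.53), fell. Of 15 assembly and cofactor genes outside the symbols used here, ISCA1, an iron-sulfur cluster factor, fell (−0.71, SE 0.152, adjusted p = 0.0253). Of 18 glycolytic genes 3 rose: PKM, pyruvate kinase (0.94), PGAM1, phosphoglycerate mutase (0.77), and GPI, glucose phosphate isomerase (0.56).

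With the block, which called 34.3% of named genes in this comparison, 3 genes of the TCA cycle and pyruvate oxidation were higher. These were DLAT, of the pyruvate dehydrogenase complex (0.46, adjusted p = 0.0247), MPC2, a pyruvate carrier (0.56, 0.0306), and CS, citrate synthase (0.39, 0.0341). On the fatty acid oxidation list ACADVL, an acyl-CoA dehydrogenase (0.45, 0.0490), was higher. GCDH, glutaryl-CoA dehydrogenase of amino acid breakdown, which that list also holds (−0.56, 0.0269), was lower. The block called 4 carriers and 6 glycolytic genes higher, 5 genes of import, cristae and dynamics higher and 1 lower, and 2 of the outside assembly and cofactor genes higher and 2 lower. It called 0 of the regulators of the mitochondrial genome and 0 of the antioxidant enzymes.

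Under the negative gradient against baseline SLC25A6 (1.00, adjusted p = 0.0412) and ACADVL (0.72, adjusted p = 0.0389) rose without the block, where 3.65% of named genes were called. With the block 3 carriers, 2 genes of import, cristae and dynamics, 1 of fatty acid oxidation and 3 of glycolysis were higher, where 11.9% of named genes were called. At high WSS against baseline no gene of these lists passed without the block. With it, where 14.6% of named genes were called, DLAT (0.55, adjusted p = 0.0228), MPC2 (0.59, 0.0476), FDX1, a ferredoxin (0.55, 0.0239), VDAC2 (0.54, 0.0304), HSPE1 (0.48, 0.0461), IMMT (0.57, 0.0470) and GPI (0.45, 0.0466) were higher and ISCA1 (−0.74, 0.0154) lower. Between the gradients and between positive gradient and high WSS no gene of the lists passed in either fit, and none passed without the block between negative gradient and high WSS.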

How the data were processed

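Total RNA of 12 samples was hybridized to Affymetrix bovine arrays. The deposited values are log2 expression values that the authors made with RMA (background correction, quantile normalization, 1 value per probe set), per the submitters' processing notes, which also name limma. Versions and settings: not given in the sources used here. In all, the full matrix held 24128 probe sets, of which 112 controls were left out. No detection calls or intensities were used. A table of 7194 probe sets, with identical values and no stated rule of choice, was the only source of gene names, and the annotation named 4770 of them. Of the 24016 tested probe sets 4726 had a name and 19290 had none. All 81 member symbols matched RefSeq genes of ARS-UCD2.0 by Entrez number. No array build is given, so no coordinates are printed, and no sequences were used.

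Samples were grouped by the stress named in their titles. All 12 arrays entered 1 limma fit (3.58.1, R 4.3.3) with a mean per group (8 residual and 4.95 prior degrees of freedom), tested on simulated data. A difference is the first group minus the second, and SE is limma's. The 6 comparisons were adjusted separately, and 3 of them share the baseline arrays. Medians over members carry no test.

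Same-numbered samples had deviations from their group means that correlated at 0.15 to 0.62 in 5 comparisons. In negative gradient against high WSS they correlated at 0.33, 0.41 and −0.079 for replicates 1, 2 and 3. The numbers come from the sample titles, and the replicate block was read as pairing in those 5. Other alternatives were leaving out each array, keeping bright probe sets, centring arrays, fitting 2 groups, eBayes with trend and robust settings, and averaging a gene's probe sets.

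Genes were named when called with or without the block (5 at most where the block alone called over 10), when among the 5 largest differences of a comparison, when brightest or dimmest of their class, when their probe sets disagreed, when isoforms of 1 family, and, of each list, up to 4 called. Genes named beside these were chosen after their values were seen. Members and lists were chosen with earlier results of these data known.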

Additional observations from a re-analysis of the deposited data

How the results depend on the processing

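With the replicate block 18 members were called for positive gradient against baseline, 5 for negative gradient against baseline, 4 for high WSS against baseline and 10 by the F test. For negative gradient against high WSS, where the numbers were not read as pairing, the block called 1, NDUFAF5 (adjusted p = 0.0444, with 4.29% of all probe sets called), and of the related lists DLAT and FDX1 lower and ACADVL higher. The block left the other 2 comparisons at 0 members. The F test called 2 members among bright probe sets and 6 with trend and robust settings. These counts have no share over all probe sets beside them and are not read as an excess. Without single arrays the members called ranged from 0 to 11 for positive gradient against baseline, 0 to 3 for negative gradient against baseline, 0 to 1 for positive gradient against high WSS, 0 to 4 for negative gradient against high WSS and 0 to 4 for the F test. The median over members ranged from −0.091 to 0.15 for negative gradient against baseline, turning sign without negative gradient replicate 1, and from −0.26 to −0.041 for negative gradient against high WSS. The causes were not tested. The other 82 of 84 medians moved by less than 0.14, the spread between replicates. No difference of a called gene changed sign. ATP5MC3 lost its call for positive gradient against baseline with centred arrays (0.56), and UQCRB with its probe sets averaged (0.35). The files give no depth, and with 3 arrays a group the median SE of a member was 0.152, so small differences could not be called.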
